A study of Rattus norvegicus with 11 samples.

Results

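The features described here are array spots that read higher in the hippocampus of rats given deep brain stimulation (DBS) than in sham-operated and naive rats, while sham and naive rats stood close together. They are 106 of the 45220 numbered features on the array (0.234%). With near-identical rows merged they make up 76 distinct profiles. Members were chosen from the measured values. The mean of the DBS arrays had to be at least 0.4 above the mean of the sham arrays, the sham and naive means had to differ by less than 0.15, and the lowest DBS array had to lie above the highest of all 7 sham and naive arrays. All 3 differences between the groups were therefore used in the choice. What follows on them is a description, and where calls of a fit over all features are counted they repeat the choice and support nothing.

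Hippocampal RNA of male albino Wistar rats, 12 weeks old, was measured on 11 two-colour Agilent arrays, with 1 pool of 3 rats on each array. DBS rats (4 arrays, 12 rats) had an electrode in the ventrolateral thalamus and were stimulated there for 1 hour a day over 14 days. Sham rats (4 arrays, 12 rats) had the electrode without stimulation, and naive rats (3 arrays, 9 rats) had neither, with handling like that of the stimulated rats. Pooling hides the differences between the 3 rats of a pool. Hippocampi were cut out of brain slices from Bregma -2 to -4, and every pool was set against the same reference, RNA of hippocampus, thalamus and cortex pooled from 4 naive, 5 sham and 4 stimulated rats.

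Each value is a log ratio of the hippocampal pool, labelled with Cy5, to the reference, labelled with Cy3. It was taken as log2; no source used here names the base. A value of 0 means as much RNA as in the reference, which itself holds hippocampal RNA and RNA of stimulated rats, so the ratios are no absolute levels. The direction was taken from the dyes and the order of the tissues in the labels, and if the deposited ratio were reversed the same features would be lower in DBS. Array medians were between -0.01 and 0.01, and on each array the features had an SD of 0.362 to 0.387. No signal over background was available, and the number of arrays limits the precision.

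High-frequency stimulation through an implanted electrode is a treatment for movement disorders, and the ventrolateral thalamus relays motor signals from the cerebellum and basal ganglia to motor cortex. The hippocampus serves spatial and episodic memory and receives thalamic input mainly from midline nuclei rather than from the motor relay. Neurons respond to activity by switching on immediate early genes, many of them transcription factors, followed by slower genes that act at synapses, in growth-factor signalling and in the supply of blood and energy. Which of these the 106 features measure is not known here. The platform's gene names did not match the numbered rows, so no gene, sequence or function is attached to any member, and the tissue label could not be checked on hippocampal marker genes. In tissue RNA, more RNA per cell and more cells of a type cannot be told apart.

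**Figure D1:**
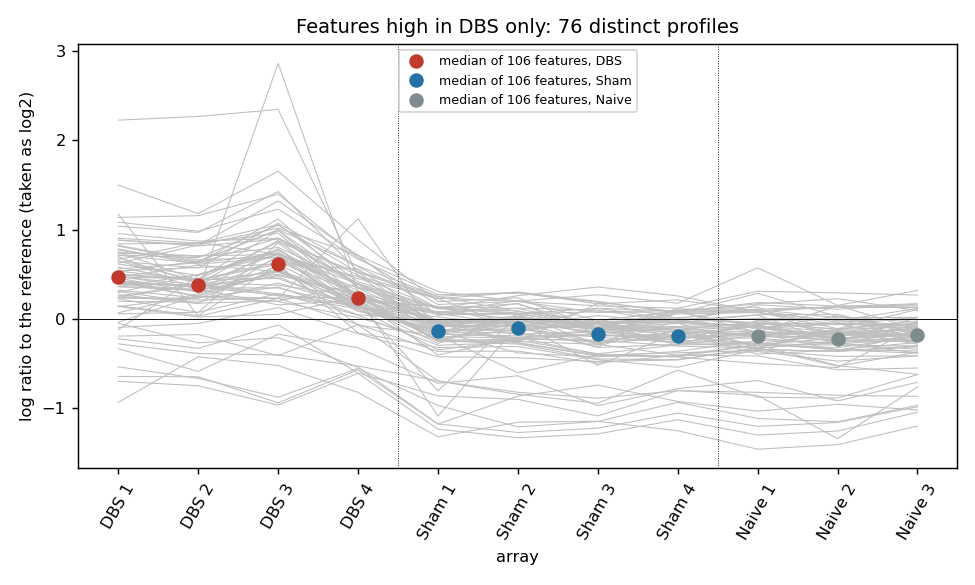
Log ratio to the reference (taken as log2) on each of the 11 arrays for the 76 distinct profiles (grey lines) and the median over the 106 features (coloured points). The DBS medians lie between 0.23 and 0.61, and the sham and naive medians between -0.23 and -0.10.

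On the DBS arrays the median log ratio over the members was 0.46, 0.38, 0.61 and 0.23 for replicates 1 to 4. On the sham arrays it was -0.14, -0.10, -0.17 and -0.20, and on the naive arrays -0.19, -0.23 and -0.19. The typical member was thus below the reference without stimulation and above it with stimulation. The median difference between DBS and sham was 0.55 (quartiles 0.47 and 0.72), against -0.01 over all features. The differences were mostly modest: 41 members differed by less than 0.5, 41 by at least 0.6 and only 2 by at least 1. Over the 76 profiles the median was 0.56.

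The largest increase was at feature 12742. It read 2.23, 2.27, 2.35 and 0.48 on DBS replicates 1 to 4. On the sham replicates it read 0.22, -0.11, 0.12 and -0.02, and on the naive replicates -0.11, 0.03 and -0.18. The first 3 DBS pools were nearly equal and far above all others, while DBS replicate 4 was only 0.25 above the highest sham array. The DBS mean was 1.83 ± 0.90 (SD, n = 4), the sham mean 0.05 ± 0.15 (SD, n = 4) and the naive mean -0.09 ± 0.11 (SD, n = 3). DBS thus exceeded sham by 1.78 (SE 0.32, limma), which corresponds to a 3.43-fold higher level. Without DBS replicate 4 the difference was 2.23. The SE comes from a spread shared by all groups, and DBS varied more than the others, so it can be too small.

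Feature 2624 had the widest gap between groups. It read 1.50, 1.18, 1.65 and 0.88 on the DBS replicates. Its sham values were 0.19, 0.23, -0.11 and 0.11, and its naive values 0.07, -0.11 and 0.10. Every DBS pool stood at least 0.65 above every other pool. DBS exceeded sham by 1.20 (SE 0.14, limma), a 2.30-fold increase, from 0.10 ± 0.16 in sham (SD, n = 4) to 1.30 ± 0.34 in DBS (SD, n = 4), with 0.02 ± 0.12 in naive (SD, n = 3). Neither feature had another row of the table within a distance of 0.3, so neither had a near-identical row by that measure.

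Near-identical rows made up part of the list, and whether they are repeated spots of a probe is not known here. Members were merged where their values over the 11 arrays lay within a Euclidean distance of 0.3 of each other. Of the 76 profiles, 59 held 1 feature, 12 held 2, 3 held 3, 1 held 4 and 1 held 10. The profile of 10 features had a mean SD between features of 0.0395 on an array. Its mean log ratio was 0.69, 0.39, 0.88 and 0.24 on DBS replicates 1 to 4. It was -0.26, -0.26, -0.29 and -0.41 on the sham replicates and -0.29, -0.33 and -0.20 on the naive replicates. The 7 arrays without stimulation thus lay within a narrow band below the reference, and all 4 DBS arrays lay above it, replicates 3 and 1 highest. DBS averaged 0.55 ± 0.29 (SD, n = 4), sham -0.30 ± 0.07 (SD, n = 4) and naive -0.27 ± 0.06 (SD, n = 3), which is 1.81-fold more in DBS than in sham. No row outside the members lay within 0.3 of this profile's mean. Over all members, 43 had no other row of the table within that distance, and 43 had at least 1 row within it that was not a member, up to 21 rows in all. Whether rows joined at this distance are the same probe was not tested.

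**Figure D2:**
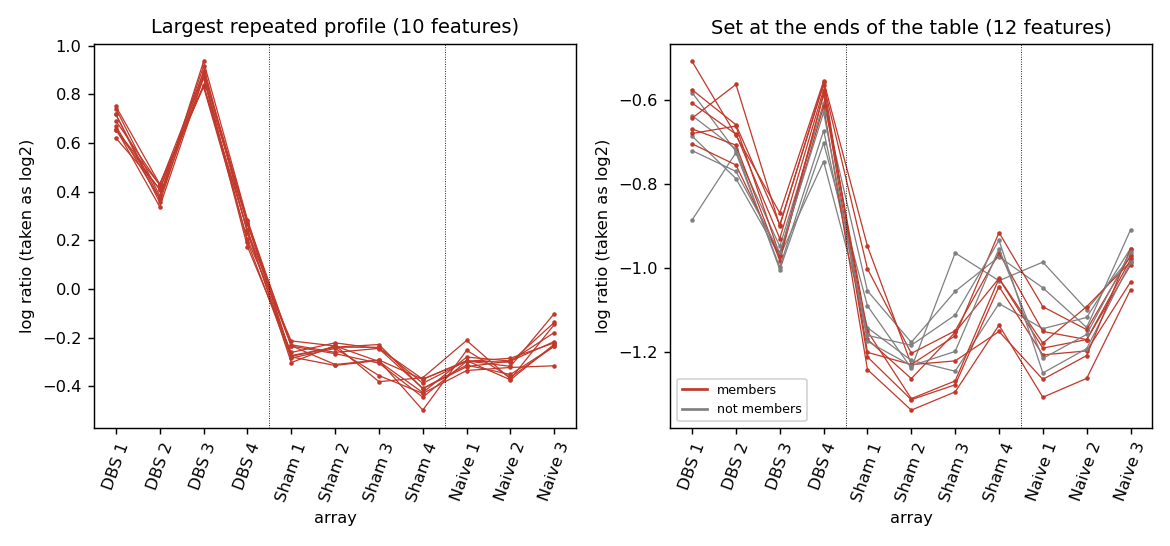
Log ratio (taken as log2) on each array for the 10 features of the largest repeated profile (left) and for 12 near-identical features at the ends of the table (right, members in red, others in grey). On the left the DBS arrays lie between 0.24 and 0.88 on average, on the right between -0.95 and -0.62, with the sham and naive arrays lower in both.

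A set of another kind lay at the ends of the table. The first 170 and the last 340 rows hold 1.13% of all rows but 7 of the 106 members (6.60%). These windows were chosen after the values were seen. The 7 members were near-identical to 5 other rows of the same windows and to 2 rows elsewhere. Near-identical here meant a root mean square difference of at most 0.15 from the mean of the 7. That cut is looser than the merging distance of 0.3, so these 7 members fall in more than 1 of the 76 profiles. The mean SD between the 12 rows of the windows was 0.0682 on an array. The mean of the 12 rows was -0.66, -0.70, -0.95 and -0.62 on DBS replicates 1 to 4. It was -1.13, -1.24, -1.17 and -1.02 on the sham replicates and -1.17, -1.16 and -0.98 on the naive replicates. DBS replicate 3 was the lowest DBS array here, unlike in most members, and close to naive replicate 3, while the other DBS arrays stood well above the sham and naive ones. The DBS mean was -0.73 ± 0.15 (SD, n = 4). The sham mean was -1.14 ± 0.09 (SD, n = 4) and the naive mean -1.10 ± 0.11 (SD, n = 3). DBS minus sham ran from 0.28 to 0.53 over the 12 rows. Membership within this set was decided by small differences: all 5 rows that were not members missed the threshold of 0.4 and did not separate the arrays. Array makers commonly place control spots at the corners of an array, and no source used here says whether these rows are such spots, which was not tested. Without the end windows 99 members in 73 profiles remained, with a median difference between DBS and sham of 0.56, an alternative added after seeing the data.

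The other members were spread over the table. Its 4 equal stretches of rows held 24, 22, 24 and 36 members, end rows included. Neighbouring rows did not share the difference between DBS and sham: its correlation over all features was -0.011 for rows 1 apart, 0.012 for rows 85 apart and 0.001 for rows 170 apart. These are descriptions across features of the same arrays.

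Most members were below the reference in rats without stimulation. The mean naive log ratio was below 0 for 91 of the 106 members (85.8%), against 49.9% of all features. The reference itself held RNA of stimulated rats, and its part in this level was not tested. The rule kept naive close to sham and below every DBS array, on ratios with array medians near 0. Part of the excess below 0 is therefore fixed by the choice. For 77 members (72.6%) the naive mean was below 0 and the DBS mean above it, against 12.2% of all features. The difference that the rule required favours this pattern, so its excess is also partly fixed by the choice. For 46 members all 7 sham and naive arrays were below 0 and all 4 DBS arrays above, so that the ratio had the opposite sign with stimulation. Such a pattern was found for 227 of all features (0.502%). It is a special case of the separation that the rule required, so the excess among members is partly fixed by the choice.

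The naive level divided the members into 3 classes. In 77 members it lay between -0.5 and 0, with a median difference between DBS and sham of 0.54. In 15 members it was above 0, with a median difference of 0.57, and all 15 stayed above the reference in DBS. In 14 members it was below -0.5, with a median difference of 0.48, and 13 of them stayed below the reference in DBS; 7 of the 14 were the end rows. No member had a naive mean above 0.5, where 4.18% of all features lay.

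The member with the highest naive level read 0.62, 0.83, 1.02 and 0.71 on the DBS replicates. It read 0.30, 0.20, 0.27 and 0.17 on the sham replicates and 0.57, 0.15 and 0.32 on the naive replicates. Naive replicate 1 lay only 0.0515 below the lowest DBS array. The member with the lowest naive level read -0.94, -0.43, -0.53 and -0.83 on the DBS replicates. It read -1.33, -1.16, -1.15 and -1.26 on the sham replicates and -1.47, -1.42 and -1.21 on the naive replicates. It kept the groups 0.21 apart while remaining far below the reference in all of them.

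**Figure D3:**
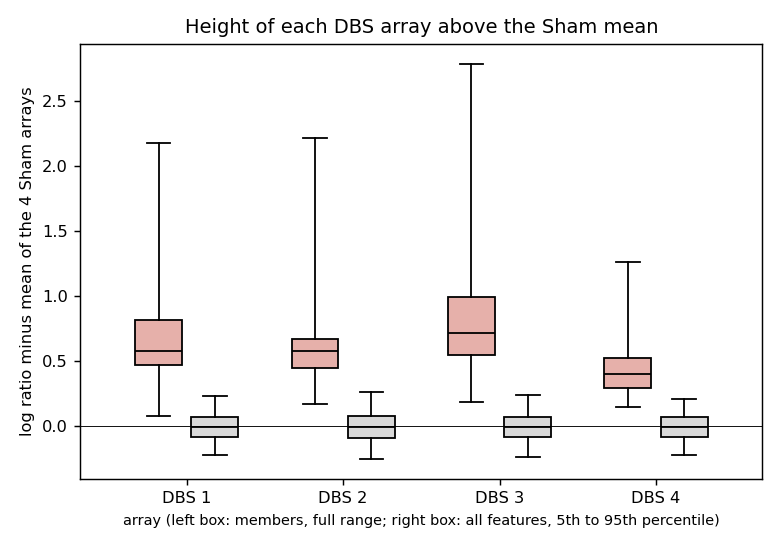
Log ratio of each DBS array minus the mean of the 4 sham arrays, for the 106 members (left boxes: quartiles, whiskers over the full range) and all features (right boxes: whiskers from the 5th to the 95th percentile). The median height of the members is 0.58, 0.58, 0.72 and 0.40 on DBS replicates 1 to 4.

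The stimulated pools did not stand equally far above sham. Above the sham mean, the median member stood 0.58 on DBS replicate 1, 0.58 on replicate 2, 0.72 on replicate 3 and 0.40 on replicate 4. Replicate 4 was the lowest DBS array for 81 members (76.4%) and replicate 3 the highest for 65 (61.3%), where the shares over all features were 25.0% and 24.6%. Among the 76 profiles replicate 4 was lowest in 58 and replicate 3 highest in 48. On replicate 4 alone 53 members stood at least 0.4 above the sham mean, against 90 to 95 on the other DBS arrays. Replicate 4 was also the lowest DBS array for 64.4% of the 494 other features whose DBS mean was at least 0.4 above sham. Among the 51 features that met the mirrored rule (lower in DBS only), replicate 4 was the DBS array nearest to sham for 39.2%. No test of these shares was made, since the features share the arrays.

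This spread made DBS the most variable group among the members. The median SD of a member was 0.185 over the DBS arrays, 0.0838 over the sham arrays and 0.0663 over the naive arrays. Over all features the medians were 0.0834, 0.0738 and 0.0658. For 96 members the SD was larger in DBS than in sham, as for 56.5% of all features. The DBS values were used by the rule, and its part in this spread was not tested.

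Individual members departed from the common order. The member with the largest SD in DBS read 0.69, 0.31, 2.87 and 0.29 on the DBS replicates. Its sham values were 0.06, 0.06, 0.11 and 0.09, and its naive values -0.16, 0.15 and -0.12. Its mean difference of 0.96 from sham rested mainly on DBS replicate 3. Another member, the one whose replicate 4 stood furthest above the mean of the other 3 DBS arrays, read 1.17, 0.03, 0.23 and 1.12. Its sham values were -0.16, -0.06, -0.15 and -0.21, and its naive values -0.19, -0.25 and -0.10. Here replicates 1 and 4 were high and replicate 2 was barely separated from the sham arrays. The steadiest member in DBS read 0.54, 0.57, 0.61 and 0.56 there. Its sham values were -0.04, -0.26, 0.17 and 0.01, and its naive values 0.11, 0.13 and 0.12. Its SD was 0.0319 in DBS, and its naive mean was 0.15 above its sham mean, at the edge of the permitted window.

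In some members the size of the difference depended on the highest DBS array. In 12 members the highest DBS array stood more than 2 times as far above the sham mean as the mean of the other 3 did. Such a member can have another high DBS array, and by the rule every DBS array of a member lay above all sham and naive arrays. Without its highest DBS array, 77 members still differed from sham by at least 0.4 and 29 did not. With the median of the sham arrays in place of their mean, 4 members fell below 0.4. The member with the largest SD in sham was not among them. Its sham values were -1.09, -0.08, -0.28 and -0.20, with sham replicate 1 far below the rest. It read 0.40, 0.25, 0.23 and 0.24 on the DBS replicates and -0.28, -0.30 and -0.31 on the naive replicates, so its lowest DBS array was 0.31 above its highest other array.

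**Figure D4:**
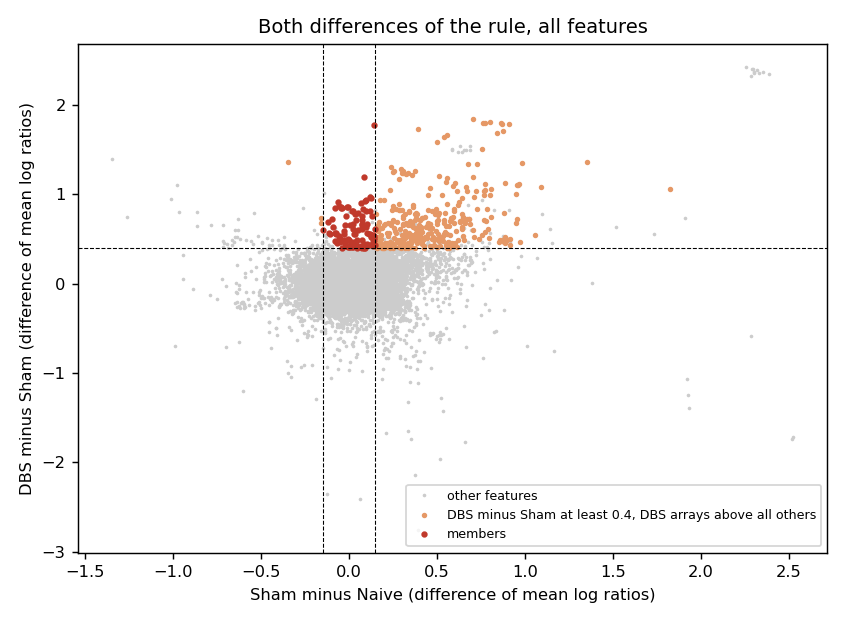
DBS minus sham against sham minus naive, both as differences of mean log ratios, for all 45220 features. Dashed lines mark the thresholds 0.4 and ±0.15. Of the features above the upper line whose DBS arrays exceed all others, 106 members (red) lie inside the window and 346 (orange) to its right, with 3 to its left.

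The name "raised by stimulation only" describes a window within a larger group. A mean difference of at least 0.4 between DBS and sham was found for 600 features (1.33%), and DBS arrays above all other arrays for 1528 (3.38%). Both held for 455 features. Of these, 346 (76.0%) had sham at least 0.15 above naive, 106 (23.3%) lay within the window and 3 (0.659%) had sham at least 0.15 below naive. Over all features 88.0% lay within the window. The separation also required every naive array to lie below every DBS array, which works against features with naive above sham. Part of this imbalance is therefore fixed by the choice. Members leaned the same way inside the window, where the same limit holds. Sham was above naive in 69 of 106 (65.1%), against 46.6% of all features, and the difference was above 0.1 in 24 members and below -0.1 in 4.

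How closely sham and naive agreed was limited by the arrays. The SE of a member's difference between sham and naive had a median of 0.0936 (limma), which gives a 95% interval of 0.203 to either side. For 103 of the 106 members this interval reached beyond 0.15, so for them these arrays cannot show that sham and naive differ by less than that. The fit over all features called none of the members in sham against naive (limma, adjusted p under 0.05), with 2 members at an unadjusted p under 0.05, where 0.931% of all features were called; the rule itself admitted only small differences. It called 100 of the 106 higher in DBS than in sham, against 1.94% of all features, and 102 higher in DBS than in naive, against 4.60%. These counts repeat the choice of members and support nothing further.

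The thresholds did not fall in a natural gap. The smallest difference between DBS and sham among members was 0.402, and the largest among features that met the other conditions and missed this one was 0.398. The widest difference between sham and naive was 0.148 inside and 0.152 just outside. The smallest gap between the lowest DBS array and the highest other array was 0.0172 inside, and just outside the arrays overlapped by a gap of -0.00798. The gap was under 0.1 for 21 members and at least 0.3 for 36, and 24 members differed by less than 0.45 between DBS and sham. A further 30 features met both conditions on the means and had overlapping arrays.

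The mirrored rule, with DBS lower by the same amounts, chose 51 features in 47 profiles. With the roles of the groups exchanged, 2 features were high in sham only and 2 low in sham only. In naive only, 19 were high and 56 low. The groups have different numbers of arrays, so the counts with naive set apart are not on the same footing.

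**Figure D5:**
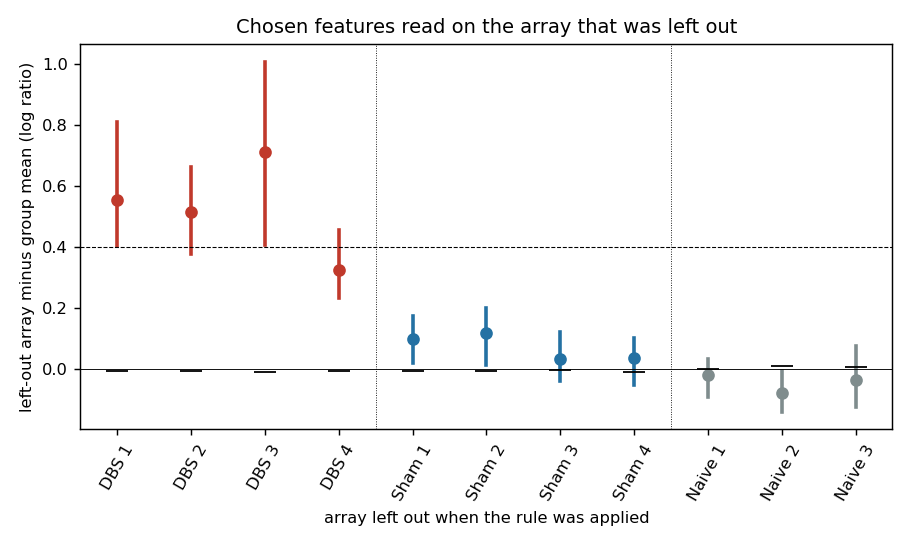
Features chosen by the rule without the array named on the horizontal axis, read on that array: median (point) and quartiles (bar) of its log ratio minus the mean of the sham arrays (DBS and naive arrays) or of the naive arrays (sham arrays). Black dashes are the medians over all features; the left-out DBS arrays have medians of 0.32 to 0.71.

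The same measure could be read on arrays that the choice did not use. The rule was applied without 1 array at a time, and the chosen features were read on the array left out. Without DBS replicates 1, 2 and 3 it chose 112, 120 and 96 features, whose medians on the left-out array were 0.55, 0.51 and 0.71 above the sham mean. Without DBS replicate 4 it chose 143 features, with a median of 0.32 on that array. The median over all features was -0.01 on each of these arrays. The left-out DBS array lay above every sham and naive array for 92.9%, 92.5%, 92.7% and 89.5% of the chosen features, against 14.6% to 17.9% of all features. It reached the threshold of 0.4 for 76.8%, 70.8% and 75.0% on replicates 1 to 3 and for 35.0% on replicate 4. Over all features these shares were 1.67%, 2.20%, 2.28% and 1.29% on replicates 1 to 4. Each DBS array was thus high where the other 3 were, with replicate 4 at a smaller size. The sham and naive arrays that serve as the baseline were part of the choice and had to lie below the other 3 DBS arrays, so part of the excess over all features is fixed by the rule. The chosen sets also overlap and share arrays, so these 4 readings are not independent.

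On left-out sham arrays fewer of the chosen features than of all features lay close to the naive mean, and on left-out naive arrays the shares were mixed. The left-out sham array stood a median of 0.10, 0.12, 0.03 and 0.03 above the naive mean for sham replicates 1 to 4, and within 0.15 of it for 62.7%, 58.5%, 71.9% and 75.3% of the chosen features. Over all features these shares were 78.1%, 77.7%, 80.1% and 82.4%. The left-out sham array was above the naive mean for 84.1%, 78.5%, 61.5% and 58.8% of the chosen features. Over all features it was above that mean for 47.6%, 47.9%, 48.8% and 46.5%. The left-out naive array stood at a median of -0.02, -0.08 and -0.03 from the sham mean for naive replicates 1 to 3. It was within 0.15 of that mean for 83.5%, 73.3% and 72.9% of the chosen features, against 83.0%, 76.1% and 82.8% of all features. All left-out sham and naive arrays were below the lowest DBS array used for at least 95.8% of the chosen features, against 19.5% to 22.6% of all features. The DBS arrays and group means in these readings were part of the choice, and only the left-out array was outside it.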

How the data were processed

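Amplification and labelling used a low-input kit on hippocampal RNA, per the labels' protocols. The deposited values, taken as log2 ratios, are 1 per feature and array, without missing entries and with array medians near 0. No source used here names the log base, background correction, normalization, spot filters, slides or scan dates, so no batch was tested. Arrays were grouped by their titles, with biological replicates per the labels. Correlations between arrays were 0.732 to 0.932, so no array was a copy of another.

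The rule was applied to the deposited values. Members were merged by complete linkage at a Euclidean distance of 0.3 (scipy 1.17.1, numpy 2.4.6, pandas 2.3.3, Python 3.11.15). SEs and calls came from limma 3.58.1 in R 4.3.3 (lmFit, eBayes, default settings) over all 45220 features and 11 arrays, two-sided, Benjamini-Hochberg over all features. The fit was tested on simulated data. The members and all lists were chosen with earlier results of these data known. Only 2 features are identified by number: the largest difference between DBS and sham, and, from another profile, the widest gap between the groups. Others are described by an extreme value. The alternatives were other thresholds, scalings, fits and merging distances, and each array left out.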

Additional observations from a re-analysis of the deposited data

Results flagged for a closer look

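In 3 of the groups of 4 arrays described here, 1 array stood far from the other 3, with a gap to its neighbour, as a share of the group's range, above Dixon's critical value at the 95% level. Chance gives such a gap in about 1 group in 20, and the members read here were picked for extreme values. At feature 12742, DBS replicate 4 stood at 0.48, below the other 3 DBS arrays. In the member with the largest SD in DBS, DBS replicate 3 stood at 2.87, above the other 3. In the member with the largest SD in sham, DBS replicate 1 stood at 0.40, above the other 3, although the 4 arrays were close together. Over all 106 members such a gap was found in the DBS arrays of 11 (10.4%) and in the sham arrays of 7 (6.60%), against 6.41% and 5.84% of all features.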

How the results depend on the processing

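The number of members followed the threshold on DBS minus sham. A threshold of 0.3 gave 210 features in 139 profiles and 0.5 gave 65 in 50, where the rule gave 106 in 76. Other thresholds, scalings and merging distances kept both counts within 1.5 times. Leaving out single arrays gave 96 to 143 members, 69 to 102 profiles and medians of DBS minus sham from 0.52 to 0.56. Fits without single arrays were read on the 106 members chosen with all arrays. They called 86 to 99 of these in DBS against sham, 86 to 102 in DBS against naive and 0 in sham against naive. Of all 45220 features they called 784 to 1297, 2083 to 3717 and 87 to 575 in these comparisons, in either direction. Arrays sharing a replicate number had correlations of deviations from -0.122 to 0.15, with 2 of 10 pairs over 0.1. Pairs with different numbers covered a wider range in both directions. With so few arrays in a group, these correlations cannot decide whether the numbers pair the arrays. The replicate block called 97 members in DBS against sham, 99 in DBS against naive and 0 in sham against naive. Over all features it called 892, 2807 and 319, in either direction. Feature 12742 lost its call with robust eBayes (difference 1.78, limma adjusted p = 0.055, range over the alternatives 2.86e-07 to 0.055), the cause was not tested, and feature 2624 kept its call in all 18 alternatives. Both features were chosen on these same values, so their calls are descriptions. Without signal over background, dim features could not be told from bright ones.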
